A study of Mus musculus with 31 samples.

Results

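Masseter muscle (MM) of vehicle-treated mice was profiled in both experiments of the study, 3 mice in the experiment on complete Freund's adjuvant (CFA) and 3 mice in the experiment on collagenase type 2 (Col). These 6 libraries, chosen by their sample titles, are all the vehicle libraries among the 31 libraries of the series. The other 25 libraries came from MM injected with CFA, 0.2U Col or 10U Col to model muscle pain of the jaw, and each injected group was read against its own vehicle group. All mice were adult C57BL/6J males of wild-type genotype. The vehicle was PBS, injected into the left MM, and the left MM was dissected with its tendons removed as far as possible. The labels do not give the day on which vehicle-treated mice were collected. Each library was made from the MM of 1 mouse as a stranded poly(A) library, and reads of 50 bases were counted per gene by the authors. Counts on genes ranged from 24035014 to 29076671 (median 25929667) in CFA vehicle and from 21284802 to 23862787 (median 21468662) in Col vehicle. Levels are CPM, the counts of a gene as a share of the library's counts, scaled by TMM, or RPKM, which is also divided by exon length, where genes are compared with each other. All differences are given as CFA vehicle minus Col vehicle.

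MM is a jaw-closing muscle, and in the mouse it is built almost entirely of fast fibres. The motor of a fibre is a myosin heavy chain, and adult fibres are typed by the chain they use: Myh4 (2B, fastest and most glycolytic), Myh1 (2X), Myh2 (2A) and Myh7 (slow, oxidative). The embryonic chain Myh3 and the perinatal chain Myh8 are replaced during growth and can return in regenerating fibres. MM lies against the parotid salivary gland, the zygomatic arch and the mandible, so that a dissection can hold gland, tendon, bone and marrow, and the skin of the cheek covers it.

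The labelled tissue was checked against transcription factors of head and of trunk and limb muscle. Tbx1 and Lhx2, which act in the development of jaw muscles, were detected in every vehicle library, Tbx1 at 35.0 to 82.9 CPM and Lhx2 at 10.5 to 18.5 CPM. Of 6 such regulators listed, Tcf21 and Isl1 did not pass the filter on low counts and stood at 0.0680 to 0.292 and 0 to 0.170 CPM. Of 43 genes that mark trunk and limb muscle, mainly Hox genes, 6 passed the filter on low counts. Meox2 was the highest at 17.9 to 38.2 CPM, above Lhx2 in all 6 libraries, followed by Meox1 at 2.22 to 10.2 CPM, and Hoxd9 stood at 0.181 to 0.810 CPM. The 43 genes summed to 29.6 to 55.6 CPM and the 6 head regulators to 56.3 to 109.7 CPM. Myod1, a muscle determination factor, stood at 55.1 to 99.7 CPM. The labels call the mice male. Y-linked Ddx3y stood at 35.3 to 85.6 CPM and Xist at 0 to 0.243 CPM in the 6 libraries.

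The genes of the 3 adult fast chains and of Myh3 lie on mouse chromosome 11. The windows before their starts are shown because the fibre type results concern these genes, and no motif was tested against their levels. The 250 bases before the first base of each transcript are printed from RefSeq (build GRCm38.p6, plus strand). Capitals mark 2 motifs: TATAAA nearest the start, and the 20-base stretch AATATTTCTAATTATATCCA.
Myh4, chr11:67237562-67237811: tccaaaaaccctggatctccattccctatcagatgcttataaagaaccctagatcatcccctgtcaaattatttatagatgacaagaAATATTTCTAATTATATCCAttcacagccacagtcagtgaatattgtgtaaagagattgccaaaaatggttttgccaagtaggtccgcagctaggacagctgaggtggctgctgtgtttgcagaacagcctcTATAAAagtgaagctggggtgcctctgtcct
Myh1, chr11:67199852-67200101: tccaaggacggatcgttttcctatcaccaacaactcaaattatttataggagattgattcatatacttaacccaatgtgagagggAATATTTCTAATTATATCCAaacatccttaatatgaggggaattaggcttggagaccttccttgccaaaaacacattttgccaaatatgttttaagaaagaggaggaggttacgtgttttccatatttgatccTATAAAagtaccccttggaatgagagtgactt
Myh2, chr11:67170777-67171026: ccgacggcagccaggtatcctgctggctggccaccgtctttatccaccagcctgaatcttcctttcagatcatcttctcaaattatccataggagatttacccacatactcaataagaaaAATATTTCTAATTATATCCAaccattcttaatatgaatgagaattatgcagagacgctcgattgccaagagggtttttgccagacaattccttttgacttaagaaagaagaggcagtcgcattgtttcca
Myh3, chr11:67078050-67078299: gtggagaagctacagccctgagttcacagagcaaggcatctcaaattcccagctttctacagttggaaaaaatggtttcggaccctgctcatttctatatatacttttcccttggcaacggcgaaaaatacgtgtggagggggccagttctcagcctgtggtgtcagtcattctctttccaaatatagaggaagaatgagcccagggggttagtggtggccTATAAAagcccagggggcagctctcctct

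The 20-base stretch lay 163, 165 and 130 bases before the start of Myh4, Myh1 and Myh2, the 3 adult fast chains. It was picked as the longest stretch that the windows of these 3 genes share, so its presence in them was fixed by that choice. On either strand it was found in 3 of 32851 promoter windows (0.00913%), which are those of these 3 genes. It was not found in the window of Myh3. TATAAA lay 31, 32 and 29 bases before the start of Myh4, Myh1 and Myh3, and it was not found in the window of Myh2. TATAAA occurred on either strand in 4063 windows (12.4%).

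The genes with the most reads were those of the contractile apparatus and its fuel supply. Acta1, the actin of skeletal muscle thin filaments, led in 4 of the 6 libraries, in CFA vehicle 1 to 3 at 44813, 49372 and 21909 CPM and in Col vehicle 1 at 37425 CPM. Atp2a1, the calcium pump of fast fibres, stood at 19760 to 40681 CPM, and Ckm, the creatine kinase of muscle, at 14182 to 36216 CPM. Next among muscle genes came Myh4, Tnnt3, Tpm1, Pvalb, Aldoa, Mylpf, Tpm2, Tnnc2 and Tnni2, which code for myosin, troponin, tropomyosin and light chain subunits, a calcium buffer (Pvalb) and a glycolytic enzyme (Aldoa). Each of them varied by at most 2.63-fold between the lowest and the highest library.

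Salivary genes stood among these muscle genes. In Col vehicle 2 and 3 the gene with the most reads was Bpifa2e, a secreted protein of the parotid gland, with 13.2% and 4.65% of all counts. By the mean of the 6 libraries Bpifa2e ranked first by reads, ahead of Acta1, and the salivary genes Smr3a and Amy1 (salivary amylase) were also among the 15 genes with the most reads. The 10 most abundant genes of a library held 14.9% to 35.1% of its counts. As few as 41 genes made up 50% of the counts of Col vehicle 2, where 184 to 369 genes did so in the other 5 libraries.

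Per length, the order of muscle genes was Acta1 at 12982 to 34144 RPKM, Ckm at 10022 to 25594 RPKM, Tnnc2 at 7727 to 15496 RPKM, Tnnt3 at 7925 to 13790 RPKM and Mylpf at 6340 to 15180 RPKM. These ranges overlapped between neighbours in the order. Mb (myoglobin, the oxygen store of muscle) stood at 4219 to 9340 RPKM. Myoz1, a Z-disc protein of fast fibres, stood at 1575 to 3983 RPKM.

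Myh4 and Myh1 made up nearly all of the adult heavy chain transcripts. As a share of the RPKM of the 4 adult chains, Myh4 took 87.6%, 74.9% and 64.6% in CFA vehicle 1 to 3 and 48.9%, 82.6% and 77.4% in Col vehicle 1 to 3. Myh1 took 12.1%, 24.4% and 33.6% in CFA vehicle and 49.0%, 17.1% and 21.4% in Col vehicle. Col vehicle 1 was thus the library with the least Myh4 and the most Myh1, with both at about equal levels (ratio 0.997), while CFA vehicle 1 held 7.27 times more Myh4 than Myh1. The groups overlapped, with mean Myh4 shares of 75.7% ± 11.6 and 69.6% ± 18.1 (SD, n = 3 each, two-sided exact permutation test p = 0.7, smallest p this design can give 0.1). Myh2 took 0.289% to 2.07%, and Myh7 0.003% to 0.010%.

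**Figure D1:**
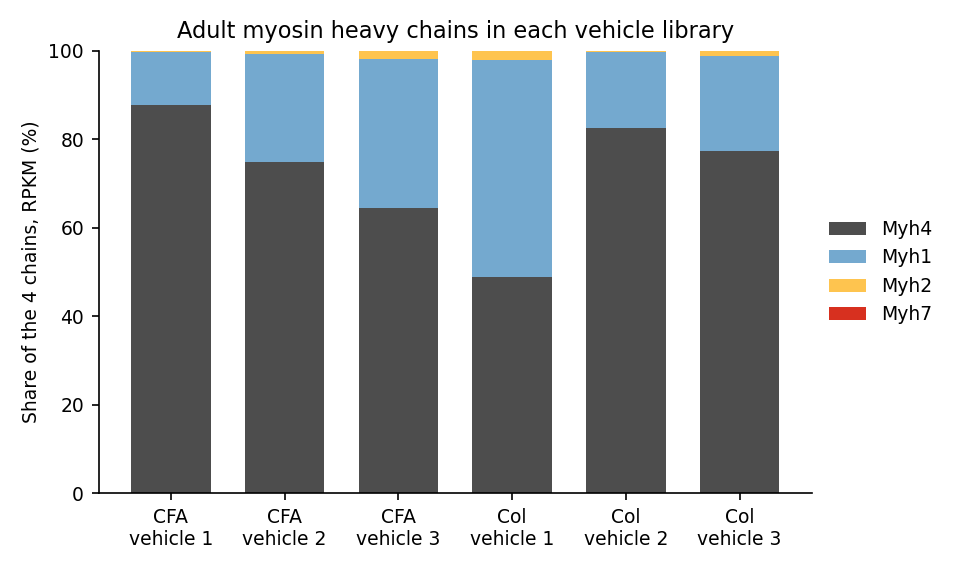
Share of each adult myosin heavy chain in the summed RPKM of the 4 chains (y axis, percent) in each of the 6 vehicle libraries (x axis), 1 mouse per bar. Myh4 holds 48.9% to 87.6% of each bar and Myh1 nearly all of the rest, and Myh7 is too small to be seen.

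Myl2, Tnnt1, Atp2a2 and Actn2 stood below their counterparts of fast fibres, by factors that differed widely. The fast regulatory light chain Mylpf was 11428 to 121100 times as abundant per length as its slow counterpart Myl2, which stood at 0.093 to 0.555 RPKM. Fast troponin T (Tnnt3) was 3036 to 17191 times as abundant as the slow form Tnnt1. The fast calcium pump Atp2a1 exceeded Atp2a2, the form of slow fibres and heart, 222 to 666 times. Atp2a2 itself was well detected, at 17.2 to 26.2 RPKM. Actn3, the Z-disc actinin of fast fibres, exceeded Actn2 by 4.82 to 16.02 times. Mybpc1, the myosin-binding protein C of slow fibres that fast fibres can also hold, led the list of slow fibre genes at 1794 to 2888 CPM, with Casq2 at 26.8 to 53.1 CPM. The smallest Mylpf to Myl2 ratio was that of Col vehicle 3, and the smallest Actn3 to Actn2 ratio that of CFA vehicle 3. Reads of 50 bases cannot always tell the heavy chains apart: 18.9% of such windows of Myh4, 26.7% of Myh1, 26.9% of Myh2 and 21.4% of Myh8 also occur in another gene, against 4.81% of Myh3, and reads that align to more than 1 place were not counted.

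Among the chains of growing muscle, Myh8 stood at 192, 229 and 266 CPM in CFA vehicle and at 758, 181 and 267 CPM in Col vehicle, so that the groups overlapped and Col vehicle 1 stood highest. Myh3 stood at 3.94, 2.95 and 2.86 CPM in CFA vehicle and at 15.9, 21.9 and 17.0 CPM in Col vehicle. Every Col vehicle mouse was above every CFA vehicle mouse for Myh3 (mm9 chr11:66891802-66915793).

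Energy genes of both pathways were abundant. The 22 genes of glycolysis and glycogen use held 2.89% to 4.79% of counts and the 82 tested genes of the respiratory chain, with 4 more below the filter, 1.96% to 3.26%. Pygm, which breaks down glycogen, stood at 3761 to 8798 CPM, Eno3 (enolase of muscle) at 2851 to 5697 CPM and Pfkm (phosphofructokinase of muscle) at 2683 to 5436 CPM. Of the respiratory chain, Atp5b and Atp5a1, subunits of the ATP synthase, stood at 2198 to 4654 CPM and 1904 to 3292 CPM. Fatty acid genes were lower, with 0.269% to 0.514% of counts for 19 genes, led by Lpl (which frees fatty acids from lipoproteins) and Cd36 (a fatty acid transporter). In CFA vehicle 3 and Col vehicle 3 most of these sums stood lower than in the other libraries of their group, for glycolysis at 23814 and 27432 summed CPM against 36461 to 50713 in the other 4.

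**Figure D2:**
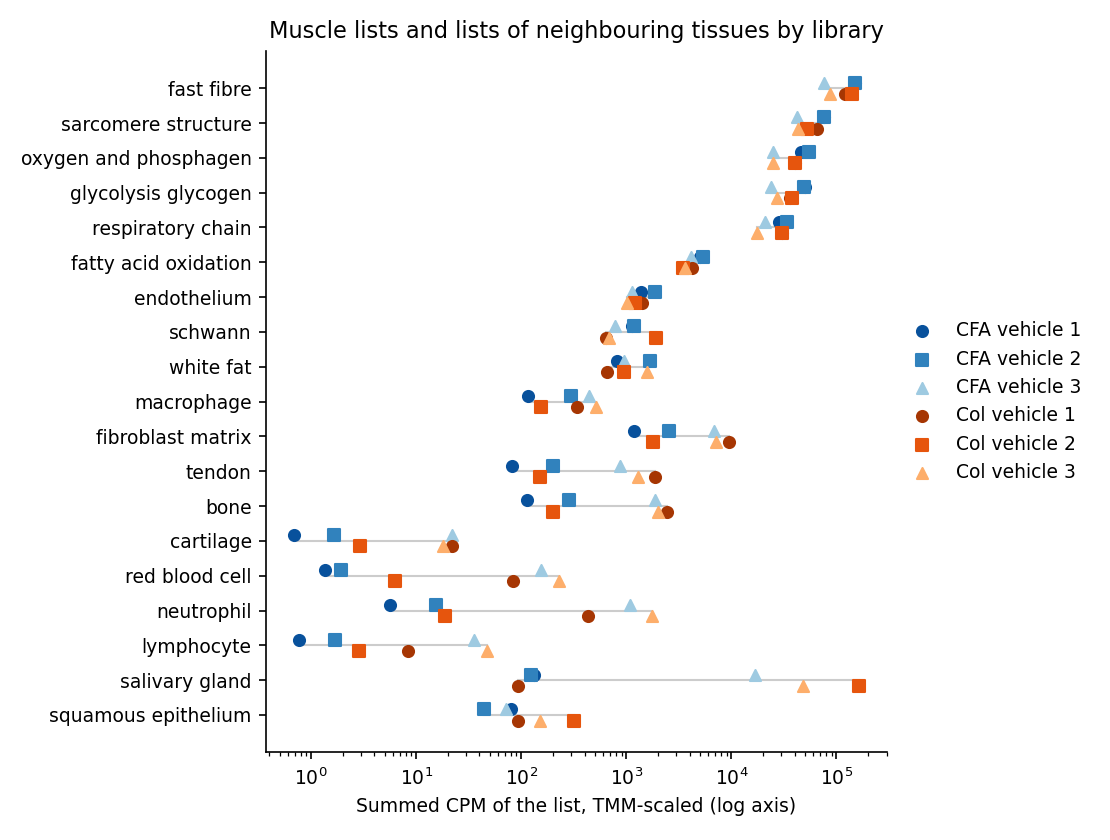
Summed CPM of muscle gene lists and of lists that mark neighbouring tissues and blood cells (x axis, log scale) for each of the 6 vehicle libraries, 1 point per library. Muscle lists span up to 2.19-fold between libraries, while the salivary gland list spans 93.3 to 162810 CPM.

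Which genes differed between the vehicle groups of the 2 experiments was tested over the 14070 genes that reached 10 counts in 3 or more libraries, by edgeR's quasi-likelihood test with Benjamini-Hochberg adjustment. A differentially expressed gene (DEG) is one that passed the thresholds of the study: a 2-fold difference, an adjusted p below 0.05 and, in 1 group or both, a mean above 1 RPKM. No gene was higher in CFA vehicle (0% of tested genes, 0 by the quasi-likelihood test and 6 by DESeq2) and 5 genes were lower (0.0355%): Krt2, Calm4, Krt1, Krt10 and Myh3. With Hrnr, 6 genes passed the adjusted p alone (0.0426%). At an unadjusted p under 0.05 there were 326 genes (2.32%), 145 higher and 181 lower. The groups did not overlap for 312 higher genes (2.22%) and 394 lower genes (2.8%). The median log2 difference of all tested genes was -0.01. Nothing but the experiment separates these groups by label. What may have differed between the experiments (mice, dates, handling, sequencing or counting) therefore cannot be told apart.

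Of the 6 genes, 5 belong to the cornified layer of skin. Krt2, a keratin of the upper epidermis (mm9 chr15:101641120-101648600), had 0 counts in all 3 CFA vehicle libraries and stood at 24.4, 59.1 and 37.0 CPM in Col vehicle. Against a floor of 3 counts per library it was at least 328-fold lower in CFA vehicle (adjusted p = 0.0296). Krt1, a further keratin of suprabasal cells (chr15:101675859-101681217), had 3 counts in CFA vehicle and 1079 in Col vehicle. The CPM ratio was 427 (exact 95% counting interval 146 to 2073, adjusted p = 0.0293 in the quasi-likelihood test). Krt10, which pairs with Krt1 (chr11:99246568-99250678), stood at 1.20, 0.931 and 1.84 CPM against 26.2, 57.5 and 36.6 CPM, a log2 difference of -4.91 ± 0.42 (SE, adjusted p = 0.0293). The groups were far apart for all 3 keratins, and Col vehicle 2 was the highest of the 6 libraries in each.

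Calm4, a calmodulin-like protein of skin (chr13:3837003-3837917), had 1 count in CFA vehicle and 596 in Col vehicle (5.70, 13.3 and 9.74 CPM), a ratio of 707 (exact interval 126 to 27978, adjusted p = 0.0293). Hrnr, the cornified envelope protein hornerin (chr3:93123671-93137492), which was named after its values had been seen, had 1 count against 556, a ratio of 660 (118 to 26103, adjusted p = 0.0296). Lor (loricrin), Krt24, Krtdap and Dmkn, further genes of differentiated epidermis, were next by p with adjusted p = 0.130, 0.102, 0.0823 and 0.0527, and in each of them the highest CFA vehicle library lay below the lowest Col vehicle library. Lor and Krt24 had 0 counts in CFA vehicle, at least 24.7-fold and 33.0-fold lower.

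Other epithelial genes differed less. Krt5 and Krt14, the keratins of basal cells that also occur in gland ducts, stood at 1.86 to 4.15 and 1.46 to 4.01 CPM in CFA vehicle, and in Col vehicle at 5.82, 25.5 and 3.66 CPM (Krt5) and 4.78, 23.8 and 4.04 CPM (Krt14). Col vehicle 2 stood highest for both, and the other 5 libraries lay close together. Trp63, a transcription factor of basal cells, stood at 57.9, 27.4 and 16.9 CPM in CFA vehicle against 16.2, 22.0 and 21.3 CPM. Of 15 tested genes of the squamous epithelium list, 8 were lower at an unadjusted p under 0.05 and 0 higher, with 2 past the adjusted p and a median log2 difference of -2.13, beside 1.29% of all tested genes lower at that p and a median of -0.01. Its summed level was 43.8 to 79.7 CPM in CFA vehicle and 93.7 to 320 CPM in Col vehicle (two-sided exact permutation test p = 0.1, the smallest this design can give).

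Myh3 was the one muscle gene past the adjusted p, with means of 3.25 ± 0.597 and 18.2 ± 3.17 CPM (SD, n = 3 each) and a log2 difference of -2.49 ± 0.26 (SE, adjusted p = 0.0474). The other 8 heavy chain genes had unadjusted p of 0.134 or more in the same quasi-likelihood test, and 7 of them were lower and 1 higher. Satellite cell and myogenic genes did not move with it past the test, since none of 11 tested genes had an unadjusted p under 0.05, and Myog, a factor of newly forming fibres, stood at 5.10 to 9.73 CPM in CFA vehicle and 3.08 to 7.55 CPM in Col vehicle. With all 31 libraries scaled together, Myh3 stood at 3.02 to 24.2 CPM in the CFA experiment. It stood at 2.46 to 23.5 CPM in Col vehicle and 0.2U and at 2.83 to 879 CPM in 10U. The experiments thus overlapped for Myh3 once injected MM was included. In the quasi-likelihood fit of all 31 libraries the adjusted p of Myh3 between the vehicle groups was 0.66.

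These calls rest on few mice. With the replicate number as a block, 0 genes passed in either direction and 0 passed the adjusted p, where 767 genes had an unadjusted p under 0.05. Leaving out CFA vehicle 1 or 2 or any Col vehicle library likewise left 0 calls, where Krt1, Krt2, Calm4 and Hrnr were not tested without a Col vehicle library because 3 libraries with 10 counts were then no longer reached. Without CFA vehicle 3 there were 2 higher and 9 lower DEGs, and 4 of the 5 calls, all but Myh3, were among them.

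**Figure D3:**
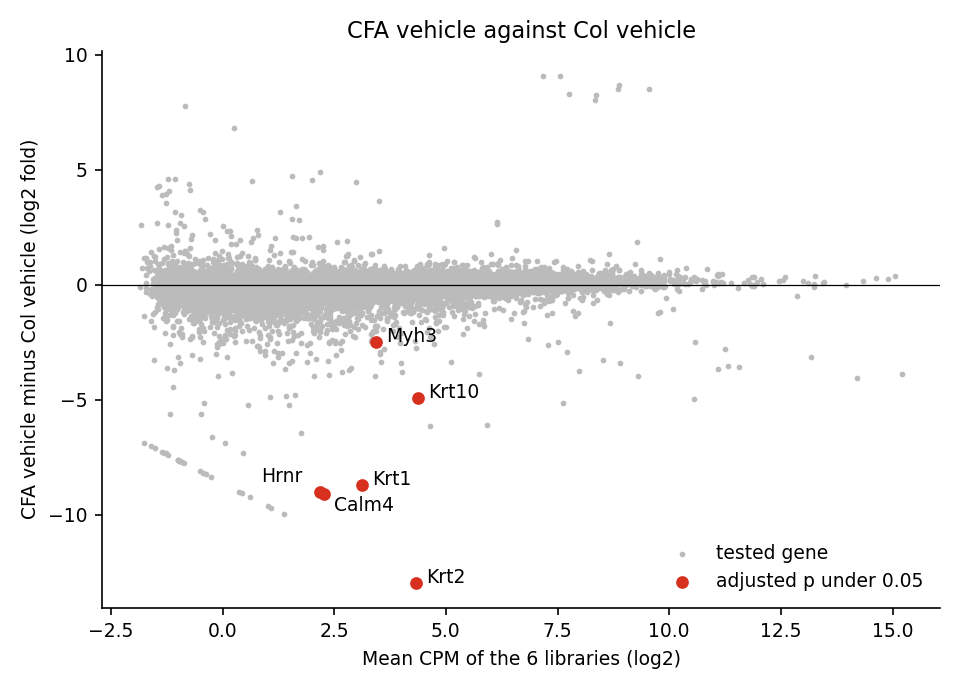
Log2 difference of CFA vehicle minus Col vehicle (y axis) against the log2 mean CPM of the 6 libraries (x axis) for the 14070 tested genes, 1 point per gene, with the 6 genes past an adjusted p of 0.05 in red. All 6 lie below 0, and the grey points near 8 to 9 on the y axis are genes high in CFA vehicle 3 alone, such as Obp1a and Mup4.

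The skin genes stood lower in the CFA experiment across the series, with the exception of 1 library. The sum of 11 genes of cornified epidermis, a list drawn up after these values had been seen and given here without a test, was 1.20 to 2.14 CPM in CFA vehicle and 93.5 to 207 CPM in Col vehicle, with all 31 libraries scaled together. It was 122 to 868 CPM in the 0.2U groups, 18.9 to 58.7 CPM in the 10U groups and 1.56 to 34.1 CPM in the CFA-treated groups, where the highest value is that of library 3 of CFA 1d and lies within the range of 10U. Krt2 reached 10 counts in 22 of 22 libraries of the Col experiment and in 0 of 9 of the CFA experiment. The tables of the experiments also differed in form, since the closing lines of unassigned reads carry plain names in 9 of 9 tables of the CFA experiment and names with leading marks in 22 of 22 of the Col experiment.

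Other genes foreign to muscle differed in the same samples, at low levels and also chosen after their values had been seen. Rbp3, a protein of photoreceptors and pineal cells, had 0 counts in the 3 CFA vehicle libraries and 1.77, 5.25 and 8.45 CPM in Col vehicle, at least 44.9-fold lower in CFA vehicle (adjusted p = 0.170). In the whole series Rbp3 reached 10 counts in 11 of 11 libraries of Col vehicle and 0.2U, and had 0 counts in all 9 libraries of the CFA experiment and all 11 libraries of 10U. Crx, a transcription factor of the same cells, and Chrnb4 had 0 counts in CFA vehicle as well, against 0.482 to 1.79 and 1.73 to 6.87 CPM in Col vehicle.

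In the opposite direction stood genes of brain and axons. Mobp, a myelin protein of the central nervous system, stood at 3.32, 2.51 and 1.33 CPM in CFA vehicle and at 0, 0.0604 and 0 CPM in Col vehicle, 192 counts against 1, a CPM ratio of 162 (exact interval 28.7 to 6424, adjusted p = 0.149). It reached 10 counts in 9 of 9 libraries of the CFA experiment and 0 of 22 of the Col experiment. Nefm and Nefl, neurofilaments of axons, stood at 5.78 to 14.6 and 3.85 to 13.6 CPM in CFA vehicle and at 0 to 0.906 and 0 to 0.966 CPM in Col vehicle, and with Nefh and Cplx1 (a protein of synaptic release) they were among the 10 genes with the smallest p for a higher level in CFA vehicle, with a fold over 2, a mean RPKM over 1 and groups that did not overlap (adjusted p = 0.235 or more). For each of these genes the groups did not overlap. The sum of 4 neurofilament genes ran from 15.8 to 43.4 CPM in CFA vehicle and from 0.314 to 3.12 CPM in Col vehicle. It did not follow the experiment across the series, since it ran from 3.33 to 65.4 CPM in the 11 libraries of 10U, all above the highest Col vehicle library.

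**Figure D4:**
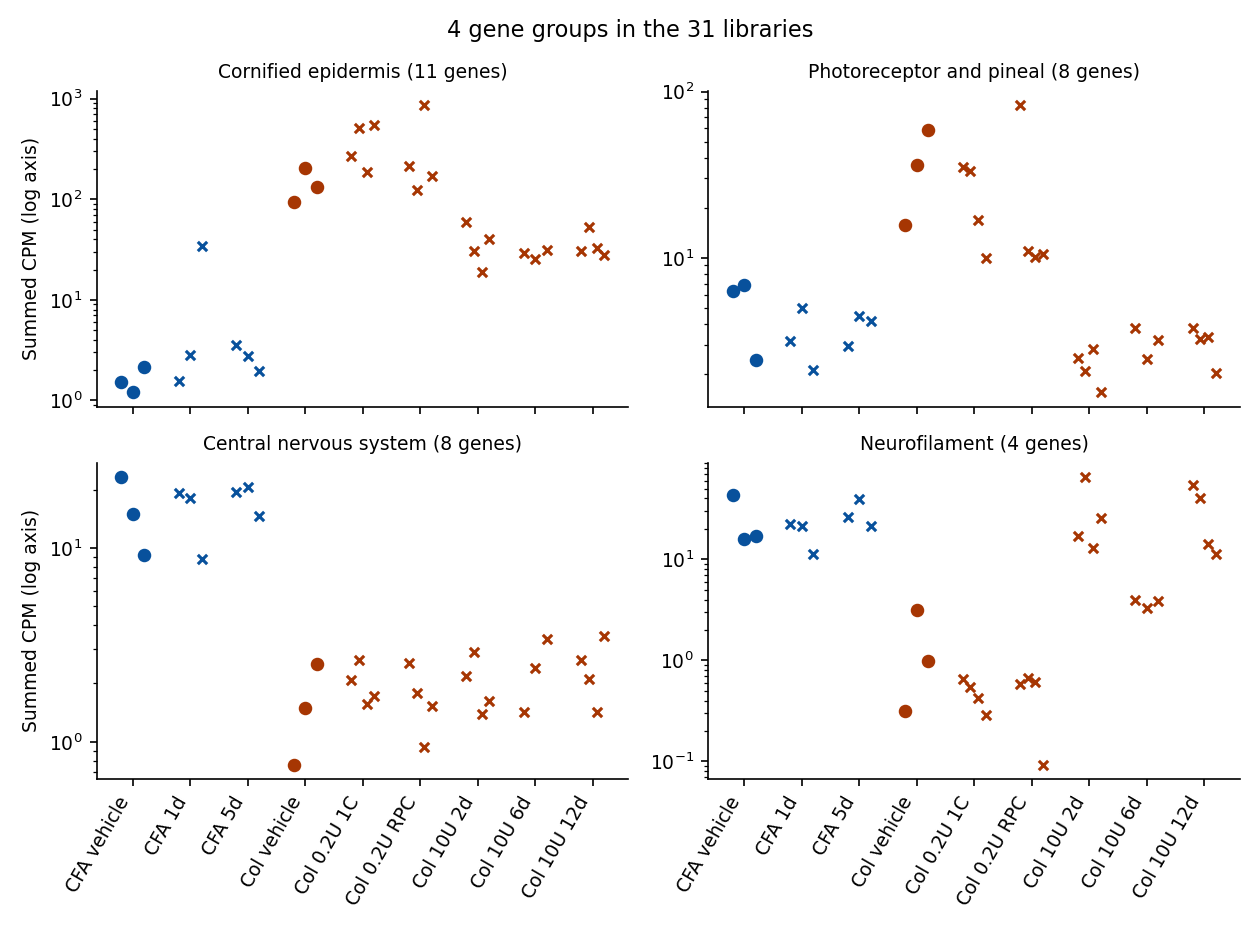
Summed CPM (y axes, log scale) of 4 gene groups in the 31 libraries by group (x axis), with the CFA experiment in blue, the Col experiment in brown, vehicle libraries as dots and injected ones as crosses. Cornified epidermis genes are at 2.14 CPM or less in CFA vehicle and at 93.5 CPM or more in Col vehicle, and central nervous system genes stand the other way round.

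Schwann cell genes did not share the direction of the neurofilaments. The sum of 13 Schwann genes was 1129, 1180 and 778 CPM in CFA vehicle and 635, 1914 and 678 CPM in Col vehicle, so that the groups overlapped and Col vehicle 2 stood highest. The median log2 difference was -0.10, and it turned positive in 6 alternatives.

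Muscle and metabolic lists differed little between the experiments. Medians of the log2 difference were 0.07 for 12 fast fibre genes, 0.17 for 18 sarcomere genes, 0.24 for glycolysis (18 of 22 higher), 0.10 for 19 genes of the TCA cycle and 0.07 for the respiratory chain (54 of 82 higher), beside -0.01 and 6797 of 14070 higher over all genes. None of these genes passed the adjusted p, and 0 had an unadjusted p under 0.05 in edgeR's test. The medians of fast fibre, TCA cycle and respiratory chain genes turned negative in 3 alternatives each, down to -0.16. The share of the sum of squares of log2 CPM that lay between the experiments was 2.30% for fast fibre genes, 20.5% for all tested genes and 81.9% for squamous epithelium.

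Fatty acid genes stood highest of the metabolic lists, with a median log2 difference of 0.37, 18 of 19 genes higher and 33.8% of the sum of squares between the experiments. Cd36 stood at 503, 545 and 478 CPM in CFA vehicle and at 352, 320 and 339 CPM in Col vehicle, a log2 difference of 0.59 ± 0.21 (SE, unadjusted p = 0.0255 in the quasi-likelihood test, adjusted p = 1.0). The groups of Cd36 did not overlap. Slc25a20, which carries fatty acids into mitochondria, was the other of 2 genes with an unadjusted p under 0.05, and none passed the adjusted p. Lpl stood at 1109 to 1228 and 774 to 906 CPM. Ucp3, the uncoupling protein of muscle, was the 1 gene of the list that was lower, at 35.4 to 143 CPM over the 6 libraries.

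Among immediate early genes, which respond within minutes to stimuli, 6 of 23 were lower at an unadjusted p under 0.05 and 0 higher, where 2.32% of all genes had such a p in either direction. None passed the adjusted p. Nr4a1, a nuclear receptor induced by muscle activity, stood at 169, 161 and 73.2 CPM in CFA vehicle and 312, 352 and 367 CPM in Col vehicle (log2 difference -1.35 ± 0.34, SE, adjusted p = 0.80). Its relatives Nr4a2 and Nr4a3, with Fosl2, Klf2 and Cyr61, were the other 5, and their groups did not overlap. The groups overlapped for Fos, at 6.56 to 19.8 and 13.5 to 40.4 CPM, and for Egr1, at 11.7 to 43.2 and 13.1 to 57.0 CPM. Jun stood the other way, at 136 to 204 and 120 to 125 CPM (unadjusted p = 0.0930 in the quasi-likelihood test). The median of the list was -0.44 and turned to 0.03 in 1 alternative.

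Slc25a25, a calcium-regulated carrier of ATP in mitochondria (mm9 chr2:32270007-32306965), was named after its values had been seen. It stood at 42.4, 47.1 and 21.4 CPM in CFA vehicle and at 205, 156 and 213 CPM in Col vehicle, a log2 difference of -2.37 ± 0.33 (SE). Every Col vehicle mouse was above every CFA vehicle mouse. The adjusted p was 0.144 in edgeR's test, 4.22e-10 in DESeq2 and 0.0128 in limma-voom with sample weights. It was 0.182 in the fit of all 31 libraries, 0.173 with the salivary score in that fit, 0.689 with the replicate block, 0.0399 without CFA vehicle 3 and 0.449 to 1.0 when any other mouse was left out. A gene on the opposite strand lies near it, and whether the counting used the strand is not given in the sources used here.

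Of 18 genes of fasting and atrophy, 10 stood higher in CFA vehicle and 8 lower. Fbxo32, a ubiquitin ligase of muscle atrophy, stood at 1917, 758 and 257 CPM in CFA vehicle and at 337, 214 and 249 CPM in Col vehicle, so that CFA vehicle 3 lay within the range of Col vehicle. Trim63, the second such ligase, stood at 950, 594 and 190 CPM against 303, 232 and 151 CPM. Fkbp5, a glucocorticoid-induced gene, stood at 227 CPM in CFA vehicle 1 and at 45.6 to 76.8 CPM in the other 5 libraries. At an unadjusted p under 0.05, 5 genes of the list were higher (Fbxo32, Trim63, Fkbp5, Zbtb16 and Mstn) and 0 lower, where 1.03% of all tested genes were higher and 1.29% lower at that p. CFA vehicle 1 was the highest library for each of the 5, and none passed the adjusted p in edgeR's test. The median of the list was 0.04.

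**Figure D5:**
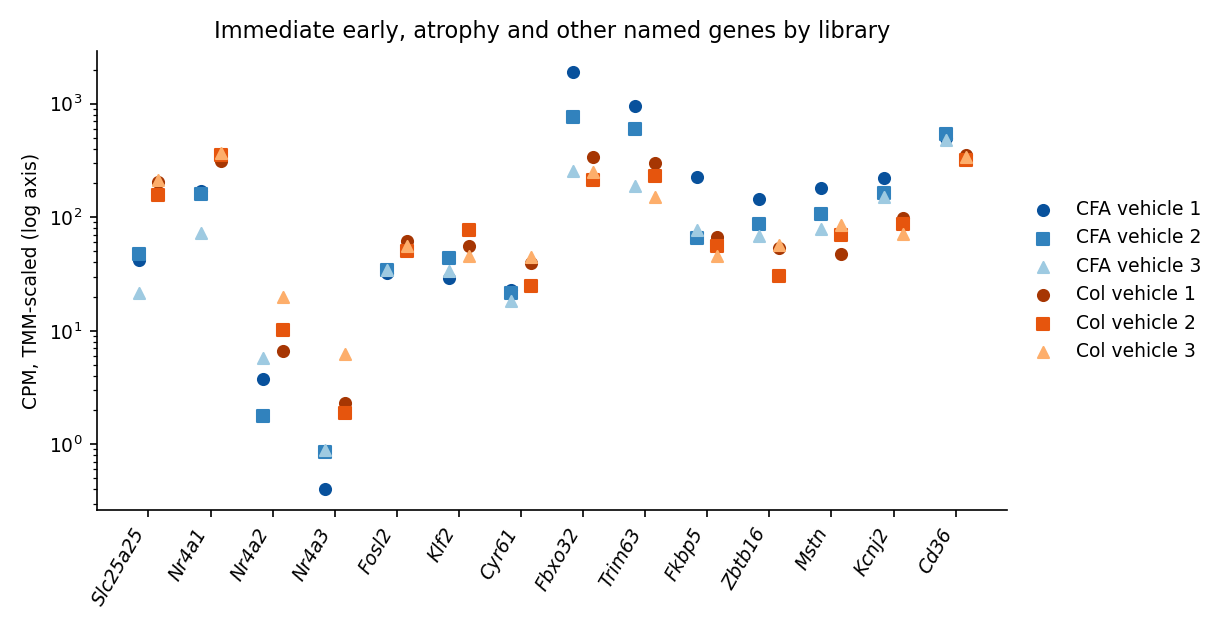
CPM (y axis, log scale) of 14 genes named in the text (x axis) in each of the 6 vehicle libraries, 1 point per library. Slc25a25, Nr4a1 and Fosl2 are higher in each Col vehicle library, Kcnj2 and Cd36 in each CFA vehicle library, and Fbxo32 falls from 1917 CPM in CFA vehicle 1 to 257 CPM in CFA vehicle 3.

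Clock genes gave no common direction, with 10 of 18 higher and a median of 0.04. CFA vehicle 3 stood lowest of the 6 libraries for Dbp at 10.5 CPM, where the highest stood at 105 CPM, and for Per1 at 16.1 CPM, where the highest stood at 90.4 CPM. Kcnj2, an inward rectifier potassium channel of the muscle membrane, stood at 220, 163 and 150 CPM in CFA vehicle and at 98.2, 87.9 and 71.4 CPM in Col vehicle (log2 difference 1.05 ± 0.23, SE, adjusted p = 0.549).

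For most genes, more of the sum of squares of log2 CPM lay within the groups than between the experiments. The SD of log2 CPM had a median of 0.336 in CFA vehicle and 0.333 in Col vehicle. It exceeded 1 for 1211 genes (8.61% of tested genes) in CFA vehicle and for 1292 genes (9.18%) in Col vehicle, of which 818 were shared, 67.5% and 63.3% of each. Between the experiments lay 10.0% of a gene's sum of squares in the median. This share is a description and was not set against the share that groups of 3 mice without a difference would give. The pair of libraries most alike was CFA vehicle 1 and 2 (Pearson r of log2 CPM across genes 0.986), but CFA vehicle 3 was most like Col vehicle 3 (0.971) and CFA vehicle 2 and Col vehicle 1 were as alike (0.971). The first principal component (54.2% of variance) placed CFA vehicle 1 and 2 at one end and CFA vehicle 3 and Col vehicle 3 at the other.

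Salivary gland genes had the widest spread. The summed level of 23 genes was 131, 123 and 16824 CPM in CFA vehicle 1 to 3 and 93.3, 162810 and 47580 CPM in Col vehicle 1 to 3, a range of 1745-fold. High libraries occurred in both groups (two-sided exact permutation test p = 0.4). Bpifa2e itself stood at 34.9, 92.3 and 14155 CPM in CFA vehicle and 42.2, 171240 and 41163 CPM in Col vehicle, so that no library was free of it. In bulk tissue, fewer cells of a type and less RNA per cell cannot be told apart. All 19 tested genes of the list were lower in CFA vehicle, with a median of -3.57, and none passed the adjusted p. The median turned positive (0.20 and 0.40) in 2 alternatives. Without the 3 libraries in which the list held over 1% of counts, CFA vehicle 1 and 2 against Col vehicle 1 gave 68 higher and 249 lower DEGs, the 5 calls among them, where the lone Col vehicle mouse is assumed to vary like the other group.

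The secreted genes were not in the same ratio in the 3 high libraries. For every 100 reads of Bpifa2e, Smr3a had 46.0, 50.6 and 50.5 reads in CFA vehicle 3, Col vehicle 2 and Col vehicle 3, and Amy1 38.9, 20.5 and 34.9. Obp1a, an odorant-binding protein, had 31.8, 0.0035 and 0.0086 reads. Obp1a stood at 4506 CPM in CFA vehicle 3 and at 0.243 to 5.92 CPM in the other 5 libraries. The 10 genes with the largest SD in CFA vehicle (mean over 5 CPM) were Obp1a, Apbh, Mup4, Abpz, Abpe, Gm5494, Gm5938, Abpd, Lpo and Amelx, and each of them was high in CFA vehicle 3 and near 0 in CFA vehicle 1 and 2. Lpo (lactoperoxidase) was high in Col vehicle 2 and 3 as well, at 479 and 220 CPM. Abpd shares 51.6% of its 50-base windows with other genes, so that its level is uncertain.

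Amelx codes for the tooth enamel protein amelogenin. It stood at 62.8 CPM in CFA vehicle 3, had 0 counts in CFA vehicle 1 and 2, and stood at 0.562 to 2.91 CPM in Col vehicle. Ambn, Enam and Dspp, further genes of forming teeth, which were added after seeing this, stood at 45.3, 15.4 and 15.6 CPM in CFA vehicle 3 and at 1.09 CPM or less in the other 5 libraries. In Col vehicle, the 10 genes with the largest SD were Dcpp1, Car6, Smr3a, Bpifa2e, 2310057J18Rik, Pip, Cst10, Dnase1, Dcpp2 and Abpa, and for each of them Col vehicle 2 and 3 were high and Col vehicle 1 low. Dcpp1 and Dcpp2 share 46.3% and 36.3% of their windows with other genes.

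Bone, tendon and blood cell genes ordered the libraries differently from salivary genes. Bone genes summed to 112, 282 and 1857 CPM in CFA vehicle and 2456, 201 and 2019 CPM in Col vehicle. Tendon genes summed to 81.3, 201 and 874 CPM and to 1860, 152 and 1303 CPM. CFA vehicle 3, Col vehicle 1 and Col vehicle 3 were the high libraries of both lists, and Col vehicle 2, the library with most salivary reads, was low. Ibsp (bone sialoprotein) stood at 0.0729, 1.5 and 48.0 CPM and at 36.5, 0.121 and 86.6 CPM. Fmod, a tendon proteoglycan, stood at 40.5, 110 and 444 CPM and at 1100, 73.3 and 685 CPM. Fibroblast matrix genes, which include Col1a1 of the bone list, followed the same order, from 1177 CPM in CFA vehicle 1 to 9490.5 CPM in Col vehicle 1.

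Neutrophil genes summed to 5.58, 15.6 and 1082 CPM in CFA vehicle and 432, 18.6 and 1773 CPM in Col vehicle. Genes of neutrophil precursors were part of this, such as Ngp at 0.328, 0.567 and 155 CPM and at 66.1, 1.57 and 424 CPM, and Mpo (named after seeing its values) at 49.5 CPM in CFA vehicle 3 and 85.3 CPM in Col vehicle 3. Red cell precursor genes were high in the same 3 libraries, with sums of 1.35, 1.94 and 154 CPM and of 84.2, 6.22 and 227 CPM, led by Slc4a1. The 4 globin genes of that list had 0 counts in all 6 libraries. Reads that align to more than 1 place were not counted, at 71.8 to 97.1 per 100 counted reads in the vehicle libraries. The 0 counts therefore do not show that globin RNA was absent, and their cause was not tested. Lymphocyte genes summed to 0.765 to 47.3 CPM and macrophage genes to 116 to 511 CPM. For none of these sums did the groups stay apart, and exact permutation p ran from 0.3 to 0.7 for bone, tendon, neutrophil, red cell, lymphocyte and macrophage genes.

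Lists of cells that belong to muscle varied less. Endothelial genes summed to 1024 to 1869 CPM, a range of 1.82-fold, led by Cdh5 and Pecam1, junction proteins of vessels. The fitted difference was above 0 for all 11, beside 48.3% of all tested genes, with a median of 0.26, and 0 had an unadjusted p under 0.05 in edgeR's test. White fat genes summed to 661 to 1696 CPM, led by Fabp4 at 268 to 399 CPM. Ucp1, which defines brown fat, stood at 1.87 CPM or less. Of 65 ribosomal protein genes 54 stood lower in CFA vehicle, beside 7273 of 14070 over all tested genes, with a median of -0.20 that turned to 0.05 in 1 alternative. At an unadjusted p under 0.05, 2 of the 65 were lower, beside 1.29% of all tested genes, and none passed the adjusted p in edgeR's test.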

How the data were processed

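Bulk RNA-seq counts of the 6 vehicle libraries were analysed, with the other 25 libraries used for the gene groups shown across the series and for 1 shared fit. Members and gene lists were chosen with earlier results of these data known. Per the labels, poly(A) RNA was made into stranded libraries and sequenced as single-end reads of 50 bases. The submitters' processing notes name bcl2fastq, TopHat2, HTSeq and build mm9, with versions not given in the sources used here. The authors deposited raw read counts per gene symbol, without normalization. The 5 closing lines of a table, for reads given to no gene, were left out of library sizes and tests. Per 100 counted reads, reads outside genes numbered 7.57 to 13.9 in CFA vehicle and 13.0 to 26.5 in Col vehicle. Ambiguous reads numbered 0.166 to 0.236 per 100 counted reads in the vehicle libraries.

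The test was that of edgeR 4.0.16 under R 4.3.3 (TMM, quasi-likelihood test, group as the only factor, Benjamini-Hochberg over 14070 genes). The SE of a log2 difference is that difference divided by the square root of F. A group at 0 was set at a floor of 3 counts per library, and counting intervals are exact and cover counting error only. A count of 10 equals 0.344 to 0.470 CPM, unscaled, in these libraries. RPKM used exon lengths of GENCODE vM1 (mm9), 21627 of 22609 symbols matched by symbol and 52 by synonym, and 930 took the median of 2842 bases. Shares of 50-base windows found in another gene were taken over GENCODE vM1 protein-coding transcripts, and coordinates are those of mm9 except for promoters. Single values per mouse were compared by two-sided exact permutation tests over the 6 mice. P-values set a difference between groups against the variation between mice. No pair of vehicle libraries held identical values.

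Deviations from the group means correlated across genes in each pair of the same replicate number (r = 0.205, 0.115 and 0.677 for numbers 1, 2 and 3), so the fit with the number as a block is given beside the calls. Pairs of unlike number correlated more in 2 cases, CFA vehicle 2 with Col vehicle 1 (0.394) and CFA vehicle 1 with Col vehicle 2 (0.266), and the labels do not say what a number shares. On simulated counts of this comparison with 200 of 14070 genes changed by 2 on the log2 scale, 107 were recovered and 10 of 117 calls were wrong. The changed genes were drawn from those with a mean over 1 CPM. All simulated libraries shared 1 mean profile apart from the change, where the TMM factors of the real libraries ran from 0.771 to 1.22. These rates may therefore not hold for the real libraries.

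Genes named are the 15 with most reads and the 15 with the highest RPKM, all heavy chains, the DEGs (at most 10 in each direction) and up to 10 next by p whose groups do not overlap, per list the 2 with most reads and the 2 with the smallest p (up to 6 by reads for some lists), and the 10 with the largest SD in each group. Other names were chosen after their values were seen, among them further members of the fixed lists and of 6 lists drawn up afterwards. Some genes of these lists are not reported here by name. Alternatives were DESeq2 1.42.0, limma 3.58.1 voom with sample weights, DESeq2's size factors, no filter, no RPKM or fold threshold, a fit of all 31 libraries with and without a salivary score, the block, each mouse left out, and 2 alternatives added after seeing the data (TMM without genes that follow the salivary score, and leaving out the 3 libraries with over 1% salivary counts).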

Additional observations from a re-analysis of the deposited data

Results flagged for a closer look

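Some of the genes foreign to muscle stood higher in injected MM than in every vehicle library of the same experiment, in data outside the comparison of the vehicle groups. The summed level of 11 cornified epidermis genes was 34.1 CPM in library 3 of CFA 1d, above the 2.14 CPM of the highest CFA vehicle library, and the other 2 libraries of CFA 1d stood at 1.56 and 2.79 CPM. The sum of 4 neurofilament genes exceeded the 3.12 CPM of the highest Col vehicle library in all 11 libraries of 10U, at 12.8 to 65.4 CPM in Col 10U 2d, 3.33 to 3.99 CPM in 6d and 11.3 to 54.6 CPM in 12d.

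The sum of 5 odorant- and androgen-binding protein genes (Obp1a, Mup4, Abpe, Abpz and Abpd), at 17.0 CPM in the highest Col vehicle library, reached 126400 CPM in Col 0.2U 1C, 66530 CPM in Col 0.2U RPC, 35120 CPM in Col 10U 2d and 9241 CPM in Col 10U 12d. It exceeded the highest Col vehicle library in 3 of 4, 3 of 4, 2 of 4 and 2 of 4 libraries of these groups. The sum of 5 tooth enamel and dentin genes, at 5.06 CPM in the highest Col vehicle library, reached 10320 CPM in Col 0.2U 1C (above vehicle in 3 of 4 libraries) and 5009 CPM in Col 0.2U RPC (1 of 4).

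Reads that fell on more than 1 gene and were set aside as ambiguous were at most 0.236 per 100 counted reads in the vehicle libraries. In 10U Col every library had more, with lowest values of 0.68 at 2d, 0.815 at 12d and 0.774 at 6d.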

How the results depend on the processing

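Counts of calls depended on the processing. DEGs numbered 6 higher and 31 lower with DESeq2 (65 past the adjusted p), 0 and 23 with limma-voom (40), 5 and 23 in the fit of all 31 libraries (46), 4 and 21 with a salivary score in that fit (39), 0 and 0 with the replicate block (0), and 68 and 249 without the 3 libraries rich in salivary counts (467), an alternative chosen after seeing the data. Leaving out each mouse gave 0 to 2 higher, 0 to 9 lower and 0 to 12 past the adjusted p, where the upper values came without CFA vehicle 3. DESeq2's size factors, no fold threshold and TMM without salivary genes gave 0 and 5 (6), no filter 0 and 6 (7), and no RPKM threshold 0 and 6 (6). All 5 calls were kept by DESeq2 and limma-voom and 4, all but Myh3, by the fit of all 31 libraries. Myh3 passed the adjusted p in 8 of 17 alternatives and Krt10 in 11 of 17. Krt2, Krt1, Calm4 and Hrnr passed in 11 of the 14 that tested them. These counts include the settings without the RPKM or the fold threshold. Both reuse the adjusted p of the main fit, so a gene that passed there could not fail. The counts also include the fit without the libraries rich in salivary counts, which left a lone Col vehicle mouse. No called gene changed its direction.

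Per length in place of reads, the mean salivary share in Col vehicle was 13.3% (5.98% of reads) and the mean share of the 10 most abundant genes was 30.8% in CFA vehicle (19.7%) and 38.6% in Col vehicle (25.0%). The median SD of log2 CPM ranged from 0.185 to 0.342 in CFA vehicle when 1 of its mice was left out, lowest without CFA vehicle 3, and from 0.209 to 0.329 in Col vehicle, lowest without Col vehicle 3. Of 629 list medians under the alternatives, 18 moved by more than the median SD of their member genes between replicates. This bar is wide for some lists, with median SDs of 4.33 in CFA vehicle and 5.49 in Col vehicle for salivary genes. A median can change sign below it, as the salivary median did from -3.57 to 0.40. Apart from the settings that leave out libraries or genes, the cause of these shifts was not tested. With 3 mice a group, exact tests of single values cannot go below p = 0.1.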
